A study of Mus musculus with 8 samples.

Results

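The genes described here build the entry of newly made proteins into the endoplasmic reticulum (ER) and their coated-vesicle transport between the ER and the Golgi. They were chosen by name as a list of 47 genes, with earlier results of these data known. Of these, 46 had a probe set with a single gene symbol, among 18193 genes measured in all. The unmatched gene was Sec61g, which was not analysed here. For each gene the brightest probe set over all 8 arrays was used. The study sorted Sca1+Lin- cells from bone marrow, the gate in which haematopoietic stem and progenitor cells are found, and held 3 samples of genotype wild type and 5 of genotype Sca1-MALT1. By its name the transgene places MALT1 under the promoter of Sca1, a surface protein of these early cells. MALT1 is an oncogene of MALT lymphoma whose product cleaves and assembles proteins that activate NF-kB. The labels give no treatment, age, sex, strain or other allele for either group, and do not say whether a sample held 1 animal or several. All values are log2 microarray signals, and all differences are Sca1-MALT1 minus wild type.

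Secreted and membrane proteins are recognised by the signal recognition particle (SRP) as they leave the ribosome, and pass into the ER through the Sec61 translocon. The translocon works with the TRAP complex, signal peptidase cuts the signal peptide, and the oligosaccharyltransferase (OST) adds glycans. COPII coats then form vesicles that leave the ER, with Sec24 proteins picking the cargo, while COPI coats and KDEL receptors return escaped ER proteins from the Golgi. All cells use this machinery, and plasma cells, which secrete antibody in bulk, are the blood cells best known for enlarging it under the transcription factor XBP1.

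Among the 46 genes, Sec24a, a cargo-selecting subunit of the COPII coat, rose and the other 45 did not pass the test. Sec24a was 2.63-fold higher in Sca1-MALT1 cells. The genes next in line by unadjusted p were the KDEL receptor Kdelr3, the second COPII adaptor Sec24d, the cargo receptor Lman1, the TRAP subunit Ssr4 and the signal peptidase subunits Spcs1 and Spcs3, with log2 differences of 0.64 to 1.50. Of all 18193 genes, 16 passed an adjusted p of 0.05 in limma's test, which is 0.0879%, and 0.044% passed as higher in Sca1-MALT1.

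Most members read somewhat higher in Sca1-MALT1. The log2 difference was above 0 in 42 of 46 members (91.3%), against 50.7% of all genes. Its median was 0.25 over the members and 0.004 over all genes, and it ran from -0.19 for Srp19 to 1.50 for Kdelr3. An unadjusted p under 0.05 with a higher mean in Sca1-MALT1 was seen in 10 members (21.7%), against 5.69% of all genes, and with a lower mean in 0 members, against 4.49%. All 5 Sca1-MALT1 arrays exceeded all 3 wild-type arrays in 9 members (19.6%), against 4.27% of all genes. In 0 members did all Sca1-MALT1 arrays lie below all wild-type arrays, against 2.87% of all genes. Because the list was chosen with earlier results of these data known, these shares describe the list and do not test it. Without wild-type replicate 2 the count of members higher on all arrays was 18 (39.1%), against 7.46% of all genes in the same fit of 2 against 5 arrays. This array exceeded the other wild-type arrays in 26 members, so its removal favours a higher count. With any other array left out the count was 9 to 12 (19.6% to 26.1%), against 4.84% to 8.09% of all genes.

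**Figure D1:**
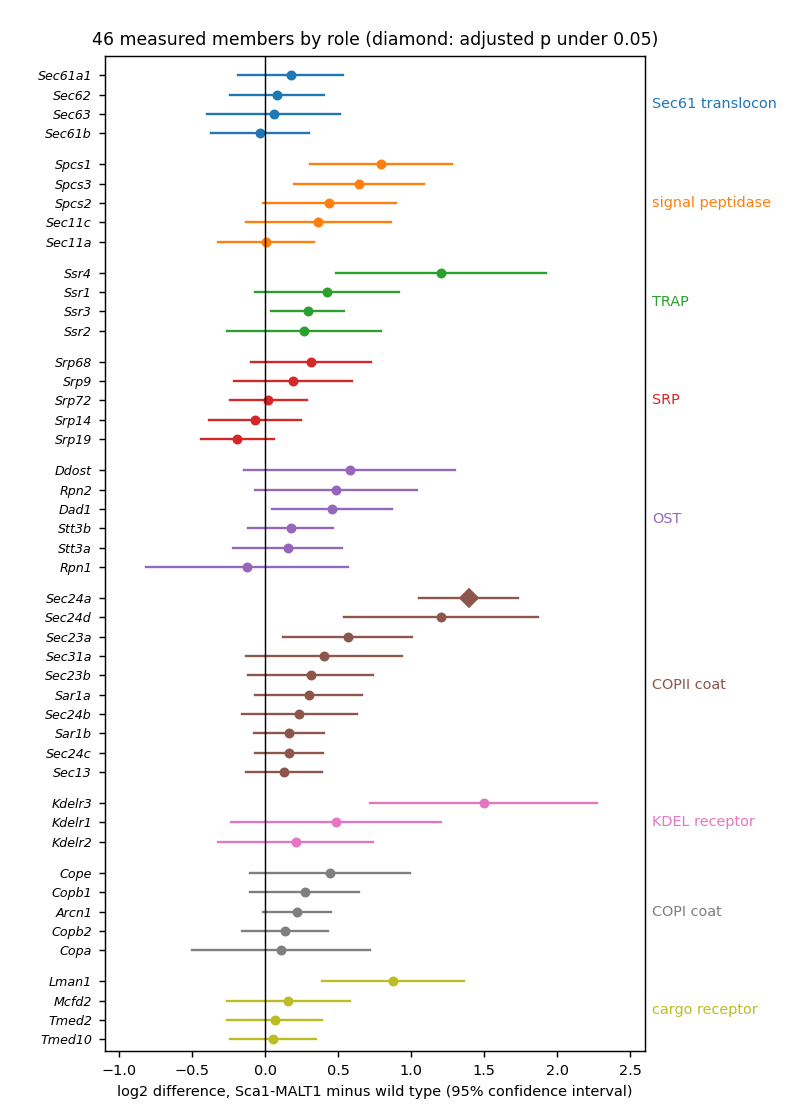
Log2 difference of the 46 measured members (x axis, Sca1-MALT1 minus wild type, n = 5 and 3), grouped by role, with the 95% confidence interval of the limma fit as a line. Sec24a (diamond) alone passed the adjusted threshold, and Kdelr3, Sec24d and Ssr4 stand beside it at 1.20 to 1.50, while the Sec61 translocon and SRP genes lie around 0.

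Markers of several blood cell types were read on the same arrays. Sca1 (Ly6a) had no usable probe set. All 5 measured stem and progenitor markers read lower in Sca1-MALT1, with a median difference of -1.33. They ran from -2.15 for Cd34 to -0.59 for Kit, with Flt3, Hlf and Meis1 between, and 3 had an unadjusted p under 0.05 in limma's test while none passed. Neutrophil markers, the granule genes Mpo and Elane among them, had means of 12.01 to 12.59 on the wild-type arrays. Plasma cell markers moved with the genotype: all 8 markers (Sdc1, Prdm1, Irf4, Tnfrsf17, Jchain, Mzb1, Slamf7 and Igha) read higher in Sca1-MALT1, where Jchain passed (adjusted p = 0.0163). The mean over the 8 was 8.80 to 8.98 on the wild-type arrays and 10.79 to 12.47 on the Sca1-MALT1 arrays. Tnfrsf17, a survival receptor of plasma cells, read 5.21 ± 0.25 (SD, n = 3) in wild type, under the array medians. B cell marker means were 9.996 to 10.82 in wild type and 7.11 to 8.37 in Sca1-MALT1. All 8 measured B cell markers read lower, Vpreb1, Igll1 and Rag1 among them, with 6 at an unadjusted p under 0.05 and 3 past the threshold in limma's test. Stem and progenitor marker means were 9.35 to 11.22 in wild type and 8.07 to 10.13 in Sca1-MALT1. T and NK cell marker means were 9.49 to 9.75 and 9.60 to 11.09, with 7 of 8 markers higher and 5 of them at an unadjusted p under 0.05. Neutrophil marker means reached from 10.18 to 13.85 in Sca1-MALT1, with 6 of 7 markers lower, and monocyte marker means were 8.88 to 10.72 and 7.91 to 10.55, with 5 of 5 lower. Erythroid marker means were 8.78 to 9.32 in wild type and 9.88 to 10.71 in Sca1-MALT1, with 5 of 5 markers higher and 3 at an unadjusted p under 0.05. The part of these cells in the values below was not tested, and in a bulk sample more cells of a type cannot be told apart from more RNA per cell. Xist, which marks female cells, was above a log2 signal of 9 on 2 Sca1-MALT1 arrays (replicates 2 and 4) and on no wild-type array.

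The stretch before the listed start of Sec24a is shown as that of the member that passed. Those of Kdelr3, Sec24d and Spcs1 are shown because they are the 3 members of lowest p that hold a core of the ER stress elements. They were chosen for the core: of the members ranked between Sec24d and Spcs1, Lman1 had no entry and Ssr4 held no core. Sequences are from RefSeq (GRCm38.p6), where 36 of the 46 members had an entry. Each is the 250 bases before the gene start, 5′ to 3′ on the gene's strand, in lower case. Capitals mark GCCACGT or its reverse complement, a core that contains CCACG, the end of the ER stress elements bound by ATF6 and XBP1. Sec24a lies at chr11:51756835-51757084 (minus strand), Kdelr3 at chr15:79516158-79516407 (plus), Sec24d at chr3:123267246-123267495 (plus) and Spcs1 at chr14:31001667-31001916 (minus).
Sec24a: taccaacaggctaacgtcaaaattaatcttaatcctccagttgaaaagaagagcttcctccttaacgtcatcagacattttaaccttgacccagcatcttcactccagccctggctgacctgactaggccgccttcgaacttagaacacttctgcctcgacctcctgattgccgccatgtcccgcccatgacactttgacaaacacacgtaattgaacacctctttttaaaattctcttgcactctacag
Kdelr3: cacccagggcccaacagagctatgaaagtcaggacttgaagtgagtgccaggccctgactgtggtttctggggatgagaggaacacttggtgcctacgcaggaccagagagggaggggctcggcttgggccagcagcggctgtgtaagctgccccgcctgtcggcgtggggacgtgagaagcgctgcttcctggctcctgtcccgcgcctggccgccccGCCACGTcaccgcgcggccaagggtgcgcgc
Sec24d: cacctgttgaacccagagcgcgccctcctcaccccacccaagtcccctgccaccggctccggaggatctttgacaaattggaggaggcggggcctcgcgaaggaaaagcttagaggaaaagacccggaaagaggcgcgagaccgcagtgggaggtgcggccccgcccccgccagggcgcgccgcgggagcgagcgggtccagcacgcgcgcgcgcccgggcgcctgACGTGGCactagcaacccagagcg
Spcs1: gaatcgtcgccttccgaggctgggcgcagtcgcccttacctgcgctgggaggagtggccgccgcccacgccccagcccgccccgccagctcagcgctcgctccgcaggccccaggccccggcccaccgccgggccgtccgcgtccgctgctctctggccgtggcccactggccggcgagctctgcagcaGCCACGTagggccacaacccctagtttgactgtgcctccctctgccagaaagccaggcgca
The core begins 31 bases before the start in Kdelr3, 24 in Sec24d and 61 in Spcs1. Sec24a holds no GCCACGT in this stretch or in the 50 bases after it. Whether its transcripts begin at this listed start was not measured, so the absence holds for this stretch only.

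The core was searched on both strands over 300 bases, from 250 before to 50 after the first listed start. It was in 12 of the 36 member promoters (33.3%), in 2.62% of the 27025 gene promoters of the table, and in 3.47% of the 14452 that belong to genes on the array. Median GC content was 60.2% in the members and 58.7% in genes on the array. The overlapping core GACGTGG was in 10 member promoters (27.8%), against 3.26% of genes on the array, and 8 members held both. CCACG alone was in 66.7% of member promoters and 32.7% of all 27025 gene promoters, whose median GC content was lower, at 52.7%. Its share among genes on the array was not computed. CCAAT alone was in 41.7% and 37.9%. The full ER stress element, CCAAT then 9 bases then CCACG, was in no member promoter and in 0.13% of all, and the second form, ATTGG then 1 base then CCACG, was in none and in 0.037%. The other 9 members with the core are shown in windows of 25 bases, with Ssr1 holding 2 of them, so that the bases around it can be compared.
Sec23a (COPII, chr12:59011994-59012018, minus): tcccctttgACGTGGCagaggcggc
Ssr1 (TRAP, chr13:37994267-37994291, minus): ccaccgccgGCCACGTgatctcccg
Ssr1 (TRAP, chr13:37994220-37994244, minus): cgcttagagGCCACGTcgacggtgg
Sec31a (COPII, chr5:100416207-100416231, minus): gctgcggctGCCACGTtggagcgga
Sar1a (COPII, chr10:61680118-61680142, plus): acagacgctGCCACGTcttaccccg
Ssr3 (TRAP, chr3:65392729-65392753, minus): cattgaggcGCCACGTaccctgaag
Sec24c (COPII, chr14:20674237-20674261, plus): ctaaggccgACGTGGCagaaggagt
Mcfd2 (cargo receptor, chr17:87266123-87266147, minus): ccacggtgaGCCACGTtccggagcc
Sec13 (COPII, chr6:113740669-113740693, minus): ttttgagctGCCACGTccgaggccg
Sec63 (translocon, chr10:42761464-42761488, plus): gctgcgcgcGCCACGTctccctcag
In Sec23a and Sec31a the core lies after the start, and in Sec13 it spans the start. The 12 members with the core had differences of 0.06 to 1.50 with a median of 0.35, and all 12 were above 0. The 24 without it ran from -0.12 to 1.39 with a median of 0.18, and 21 of them were above 0. The 10 with no entry had a median of 0.24, and 9 of them were above 0. A match is a string of letters, and binding was not measured.

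COPII coat genes carried the one call of the list. All 10 measured members were above 0, with a median of 0.30, and 1 passed. Sec24a read 7.48, 7.55 and 7.47 on the wild-type arrays and 9.18, 8.55, 8.88, 8.79 and 9.05 on the Sca1-MALT1 arrays. Wild-type arrays lay within 0.1 of each other, and the lowest Sca1-MALT1 array stood about 1 log2 unit above them. The difference was 1.39 (SE 0.15, limma adjusted p = 0.0189, higher on 5 of 5 arrays). The dimmer Sec24a probe set did not follow: it read 6.41, 5.95 and 6.92 in wild type and 6.36, 7.26, 6.84, 6.61 and 6.54 in Sca1-MALT1, a difference of 0.30 (SE 0.26) with overlapping groups. Both of its group means lie near the array medians of 6.40 to 6.48. With the mean of both probe sets the limma adjusted p was 0.0633. The call was lost without wild-type replicates 1, 2 or 3 (adjusted p = 0.128, 0.0809 and 0.0907) and without Sca1-MALT1 replicates 3 or 5 (0.0807 and 0.0663), and over the 8 fits the difference stayed between 1.32 and 1.48. With a term for the arrays of high Xist the difference was 1.54 (SE 0.13, adjusted p = 0.0139).

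Sec24d, a paralogue of Sec24a, had the next largest difference of the coat genes. It read 9.18, 9.96 and 9.70 in wild type and 11.15, 10.10, 10.57, 11.10 and 11.16 in Sca1-MALT1. The groups did not overlap, though Sca1-MALT1 replicate 2 exceeded wild-type replicate 2 only narrowly. The difference was 1.20 (SE 0.29, 2.30-fold, limma adjusted p = 0.259). Sec23a, which forms the inner coat with Sec24, read 9.06, 9.48 and 9.34 in wild type and 9.96, 9.36, 9.80, 9.99 and 10.17 in Sca1-MALT1. Replicate 2 fell within the wild-type range, and the difference was 0.56 (SE 0.19, adjusted p = 0.382). The partner paralogue Sec23b differed by 0.31. Outer coat genes were at 0.40 for Sec31a and 0.13 for Sec13, and the GTPases that start coat assembly at 0.30 for Sar1a and 0.16 for Sar1b. Sec24b and Sec24c, the remaining cargo adaptors, differed by 0.23 and 0.16. Sec24c read 12.08, 12.21 and 12.25 in wild type and 12.45, 12.26, 12.43, 12.30 and 12.27 in Sca1-MALT1, which did not overlap, though the nearest arrays of the groups read almost the same.

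**Figure D2:**
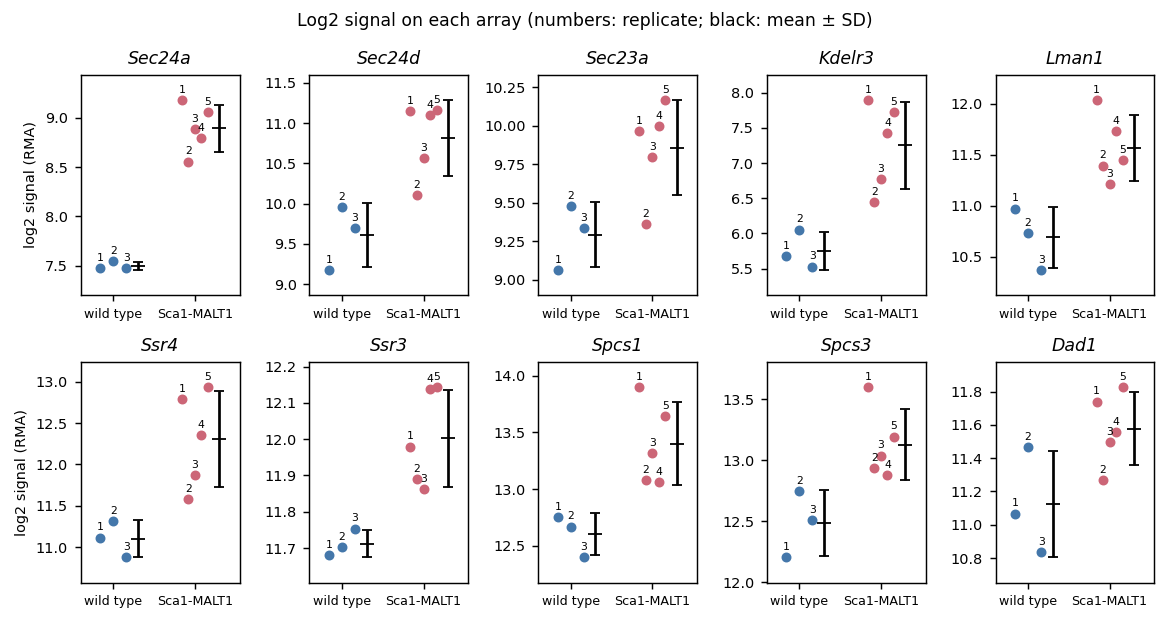
Log2 RMA signal on each array (y axis, own scale per gene) for the 10 members with an unadjusted p under 0.05, with replicate numbers beside the points and the mean ± SD in black (n = 3 and 5). The wild-type points of Sec24a lie at 7.47 to 7.55 and its Sca1-MALT1 points at 8.55 to 9.18, and in Sec23a and Dad1 Sca1-MALT1 replicate 2 reaches into the wild-type range.

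The Sec24 and KDEL receptor paralogues are set side by side as a description with no test, since these families were singled out after the values were seen. By the brightest probe set of each gene, the difference of Sec24a exceeded that of Sec24b by 1.16 and that of Sec24c by 1.23. By the second Sec24a probe set the same excesses were 0.065 and 0.13, so the gap within the family is seen with 1 of the 2 Sec24a probe sets. Sec24d, which has 1 probe set, stood 0.97 above Sec24b and 1.04 above Sec24c. The difference of Kdelr3 exceeded that of Kdelr1 by 1.01 and that of Kdelr2 by 1.29. Kdelr3 may not exceed background in wild type, so these 2 values have no exact size. By brightest probe sets, pairs of Sec23, Stt3, Sar1 and Sec11 genes differed by 0.019 to 0.36. With its second probe set, however, Stt3b exceeded Stt3a by 1.05, so a gap of this size is not limited to the Sec24 and KDEL receptor families. With the second probe sets of Sar1a and Sec11c the pairs differed by 0.34 and 0.10.

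**Figure D3:**
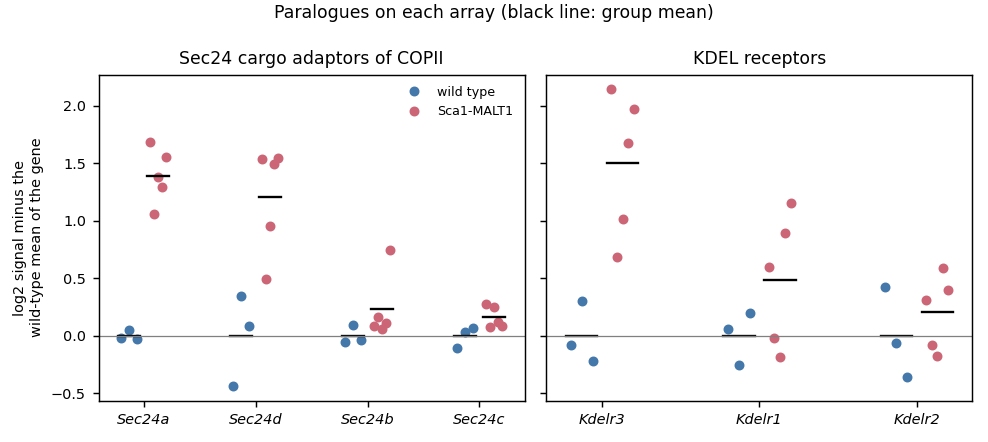
Log2 signal of the Sec24 genes (left) and KDEL receptor genes (right) on each array, minus the gene's wild-type mean (y axis), with group means as black lines (n = 3 wild-type and 5 Sca1-MALT1 arrays). Points of Sec24a, Sec24d and Kdelr3 in Sca1-MALT1 lie above all their wild-type points, as do those of Sec24c by a very narrow gap. Those of Sec24b, Kdelr1 and Kdelr2 overlap with wild type.

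KDEL receptors bind the retrieval signal of ER chaperones in the Golgi. Kdelr3 had the largest difference of all members, 1.50 (SE 0.34, limma adjusted p = 0.224). It read 5.67, 6.05 and 5.53 in wild type and 7.89, 6.44, 6.77, 7.43 and 7.72 in Sca1-MALT1. All Sca1-MALT1 arrays were above wild type, with replicates 2 and 3 the lowest. Because the wild-type mean lies under the array medians (6.40 to 6.48) and may not exceed background, the difference is not turned into a fold. Kdelr1 was at 0.49 (SE 0.31) and Kdelr2 at 0.21 (SE 0.23). Of the 3 genes none passed, and 1 had an unadjusted p under 0.05.

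COPI coat genes were all above 0 by small amounts, with a median of 0.22, and none of the 5 passed in limma's test or had an unadjusted p under 0.05. Arcn1, the delta subunit, had the lowest p, with a difference of 0.22 (SE 0.10, adjusted p = 0.517), and its second probe set differed by 0.80 with no overlap. Cope, the epsilon subunit, was at 0.44 (SE 0.24). Copa, the alpha subunit, read 11.82, 11.91 and 11.80 in wild type and 12.36, 11.99, 12.07, 12.24 and 11.10 in Sca1-MALT1. Its first 4 Sca1-MALT1 arrays were above wild type and replicate 5 was below it. Copb1 and Copb2 were at 0.27 and 0.13.

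Among the cargo receptors, Lman1 stood apart from the other 3. Lman1 (ERGIC-53) is a lectin that carries glycoproteins out of the ER in a complex with Mcfd2. It read 10.97, 10.73 and 10.37 in wild type and 12.04, 11.39, 11.21, 11.73 and 11.45 in Sca1-MALT1. The groups did not overlap, and the difference was 0.88 (SE 0.21, 1.83-fold, limma adjusted p = 0.261). Its 5 probe sets disagreed in sign: the second brightest was at -0.04, and the next read 6.68, 7.03 and 6.49 in wild type against 9.42, 7.88, 8.45, 9.29 and 8.84 in Sca1-MALT1, a difference of 2.05. Its partner Mcfd2 differed by 0.16 (SE 0.18), Tmed10, a p24 cargo adaptor, by 0.05, and Tmed2 by 0.06. The only Tmed2 probe set, at 5.50 and 5.57, lies below the array medians in both groups.

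In signal peptidase the accessory subunits Spcs1, Spcs2 and Spcs3 were at 0.44 to 0.79, and the catalytic subunits Sec11a and Sec11c at 0.004 and 0.36. All 5 genes were at or above 0, with a median of 0.44, and 2 had an unadjusted p under 0.05 while none passed in limma's test. Spcs1 read 12.75, 12.67 and 12.40 in wild type and 13.90, 13.08, 13.32, 13.06 and 13.65 in Sca1-MALT1. All 5 arrays exceeded wild type, with a difference of 0.79 (SE 0.21, 1.74-fold, adjusted p = 0.298), and its other probe sets differed by 0.62 and 0.67. Spcs3 read 12.20, 12.74 and 12.51 in wild type and 13.60, 12.93, 13.04, 12.88 and 13.19 in Sca1-MALT1. The groups again did not overlap, and replicate 1 was the highest, with a difference of 0.64 (SE 0.19, adjusted p = 0.340). The standard errors of Spcs2, Sec11c and Sec11a were 0.20, 0.22 and 0.14.

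The TRAP complex, which helps some signal sequences open the translocon, had 4 of 4 genes above 0, with a median of 0.36. None passed in limma's test and 2 had an unadjusted p under 0.05. Ssr4, the delta subunit, read 11.11, 11.32 and 10.88 in wild type and 12.79, 11.58, 11.87, 12.35 and 12.93 in Sca1-MALT1. All Sca1-MALT1 arrays were above wild type, and they spread over more than 1 log2 unit. The difference was 1.21 (SE 0.31, 2.31-fold, adjusted p = 0.284), while the dimmer probe sets were at 0.02 and 0.10. Ssr3, the gamma subunit, read 11.68, 11.70 and 11.75 in wild type and 11.98, 11.89, 11.86, 12.14 and 12.14 in Sca1-MALT1. The groups did not overlap at a difference of 0.29 (SE 0.11, adjusted p = 0.414), and the second probe set differed by 0.84 with no overlap. Ssr1, the alpha subunit, differed by 0.42 and by 1.29 in its second probe set, and Ssr2 differed by 0.26. The brightest probe sets of 8 members (Ssr4, Lman1, Ssr3, Dad1, Rpn1, Srp14, Stt3a and Sec62) carry the suffixes s or x, which mark probes that can match other transcripts, and the first 4 of these are among the 10 members with an unadjusted p under 0.05.

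OST genes had a median of 0.31, with 5 of 6 above 0, none past the threshold in limma's test and 1 with an unadjusted p under 0.05. Dad1, a small subunit that stabilises the complex, read 11.07, 11.47 and 10.84 in wild type and 11.74, 11.27, 11.50, 11.56 and 11.83 in Sca1-MALT1. All but replicate 2 exceeded wild type, and the difference was 0.45 (SE 0.18, adjusted p = 0.444). Ddost and Rpn2 were at 0.58 (SE 0.32) and 0.48 (SE 0.24), and the catalytic subunits Stt3a and Stt3b at 0.15 and 0.17. The second Stt3b probe set differed by 1.21 with no overlap. Rpn1 was at -0.12 (SE 0.30), and its 6 probe sets disagreed in sign.

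The Sec61 translocon and SRP had the medians nearest 0 of the 9 role groups. The 4 measured translocon genes had a median of 0.07, with Sec61a1, the channel itself, at 0.17 (SE 0.16, 95% confidence interval -0.19 to 0.53). Sec62 and Sec63, which drive import after translation, were at 0.08 and 0.06, and Sec61b at -0.04. All 6 Sec61a1 probe sets were above 0, at up to 0.66. Those at 0.58 and 0.30 had no overlap between groups, and the one at 0.58 had an unadjusted p of 0.0484 in limma's test. Probe sets of Sec63 ran from -0.01 to 0.89 and those of Sec62 from -0.69 to 0.11, all with overlap. The 5 SRP genes had a median of 0.02, with Srp68 at 0.31 (SE 0.18) and Srp19 at -0.19 (SE 0.11, 95% confidence interval -0.44 to 0.06), the lowest of all members. Srp14, Srp9 and Srp72 were at -0.07, 0.19 and 0.02. By the brightest probe set, no gene of either role group passed in limma's test or had an unadjusted p under 0.05.

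Of 26 members with more than 1, all probe sets were above 0 in 19, below 0 in Srp14, and of both signs in 6 (Copa, Lman1, Rpn1, Sec62, Sec63 and Stt3a). Of the 98 member probe sets, 81 were above 0. In 15 of the 26 the second brightest had the larger difference, with medians of 0.20 for the brightest and 0.21 for the second.

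The Sca1-MALT1 arrays did not carry the pattern evenly. Replicates 1, 4 and 5 gave the highest of the 8 values for 15, 14 and 12 members, and replicates 2 and 3 for 1 each. Of the 46 members, 33, 36 and 28 exceeded all wild-type arrays in replicates 1, 4 and 5, against 19 and 14 in replicates 2 and 3. The median member stood 0.34, 0.40 and 0.30 above its wild-type mean in replicates 1, 4 and 5, and 0.14 and 0.05 in replicates 2 and 3. Plasma cell marker means on the same arrays were 12.47, 11.48 and 11.71 in replicates 1, 4 and 5, and 10.79 and 11.34 in replicates 2 and 3. Monocyte marker means split the same way, at 8.78, 10.55 and 8.48 against 7.91 and 7.92. The B cell, T and NK cell, neutrophil, erythroid, and stem and progenitor marker means did not separate these arrays. Wild-type replicate 2 exceeded the other wild-type arrays in 26 members. RNA quality was gauged by how far the 3′ beta-actin control exceeded the 5′ control in log2 signal, which was 1.45 to 2.14 in wild type and 1.25 to 2.49 in Sca1-MALT1, with 1.33, 1.53, 1.29, 1.25 and 2.49 in replicates 1 to 5. For Gapdh it was 2.70 to 2.92 in wild type and 2.70, 2.55, 2.75, 2.25 and 3.20 in Sca1-MALT1 replicates 1 to 5, where replicate 4 was the lowest and replicate 5 the highest of all 8 arrays. The part of marker content or RNA quality in the pattern was not tested.

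**Figure D4:**
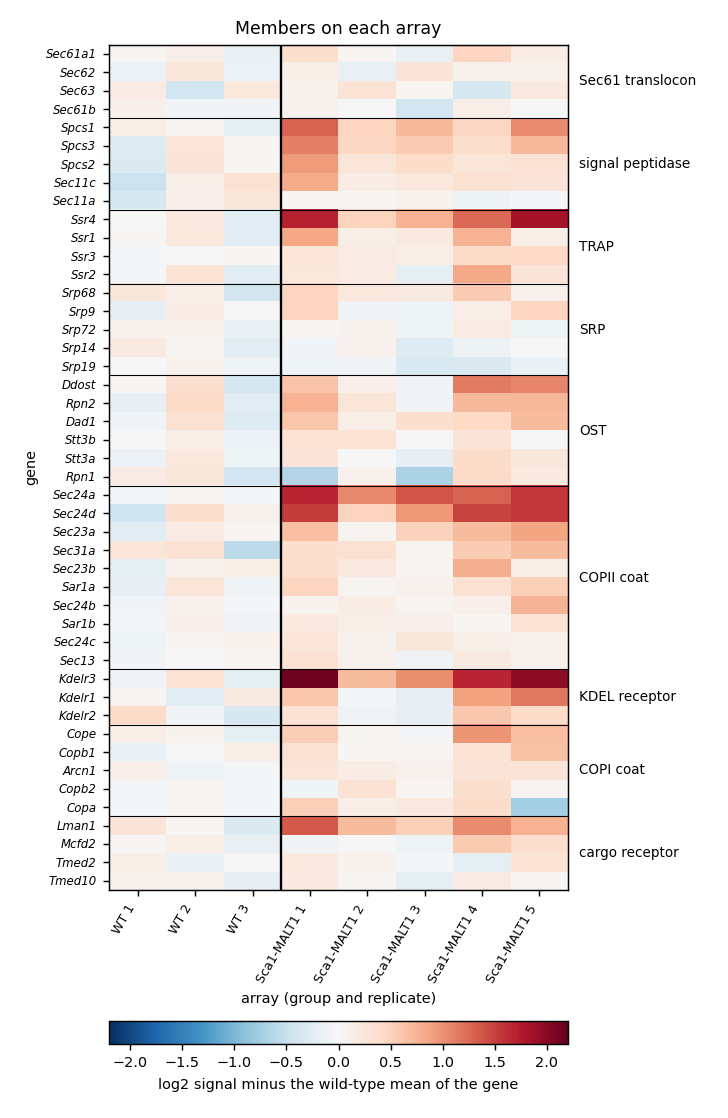
Log2 signal of each member on each array minus the gene's wild-type mean (colour, from -2.2 to 2.2), with genes in rows by role and arrays in columns (3 wild type left of the line, 5 Sca1-MALT1 right of it). Sca1-MALT1 replicates 1, 4 and 5 hold most of the deep red cells, and replicates 2 and 3 are paler.

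Further genes of the same pathway gave lower medians than the members, and none passed. The shares higher at an unadjusted p under 0.05 in limma's test were 19.4%, 17% and 23.1% in the lists below, in order. They were 21.7% of members and 5.69% of all genes. Groups did not overlap, as higher, in 19.4%, 6.38% and 23.1% of these lists, against 19.6% of members and 4.27% of all genes. In the rest of the translocation machinery 20 of 31 measured genes were above 0, with a median of 0.09, and 6 had an unadjusted p under 0.05 in limma's test, all higher. Srpr, the SRP receptor, was at 0.84 (SE 0.23, adjusted p = 0.299) and Tram2, a translocon-associated protein, at 1.79 (SE 0.53, adjusted p = 0.333). Among other ER exit and Golgi entry genes 35 of 47 were above 0, with a median of 0.12. There 8 genes had an unadjusted p under 0.05 as higher and 1 as lower, with Yipf5 at 0.49 and Klhl12, a ubiquitin ligase adaptor for COPII coats, at 0.56. In the remaining COPI list 9 of 13 genes were above 0, with a median of 0.21, and 3 had an unadjusted p under 0.05. Arfgap3, which uncoats COPI vesicles, was at 1.16 (SE 0.29, adjusted p = 0.271) and Arf4, a coat-recruiting GTPase, at 0.56 (SE 0.15, adjusted p = 0.288).

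The ER folding list had the largest median of the 6 related lists and the post-Golgi transport list the lowest. In the folding list 22 of 24 genes were above 0, with a median of 0.57. None passed, 14 had an unadjusted p under 0.05 in limma's test, and in 11 (45.8%) the groups did not overlap. The chaperone Dnajb9 was at 1.35 (SE 0.21, adjusted p = 0.0915) and the degradation factor Edem1 at 2.82 (SE 0.47, adjusted p = 0.109). All 12 ER stress regulators were above 0, with a median of 0.28. Of them 5 had an unadjusted p under 0.05, with Xbp1 at 1.32 (SE 0.22, adjusted p = 0.109) and Creb3, a membrane-bound transcription factor, at 0.62 (SE 0.16, adjusted p = 0.295). Clathrin, adaptor, retromer and exocyst genes, which work beyond the Golgi, were above 0 in 13 of 31, with a median of -0.08. Snx2, a retromer sorting nexin, was at -0.67 (SE 0.19, adjusted p = 0.316) and Cltb, a clathrin light chain, at 0.61 (SE 0.21, adjusted p = 0.382). GCCACGT was in 0 of 28 post-Golgi promoters, 3 of 21 folding promoters and 4 of 13 remaining COPI promoters. It was in 8 of 42 other ER exit and Golgi entry promoters, 2 of 23 other translocation promoters and 1 of 10 ER stress regulator promoters. These lists are set beside the members as counts, and the differences between lists were not tested.

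**Figure D5:**
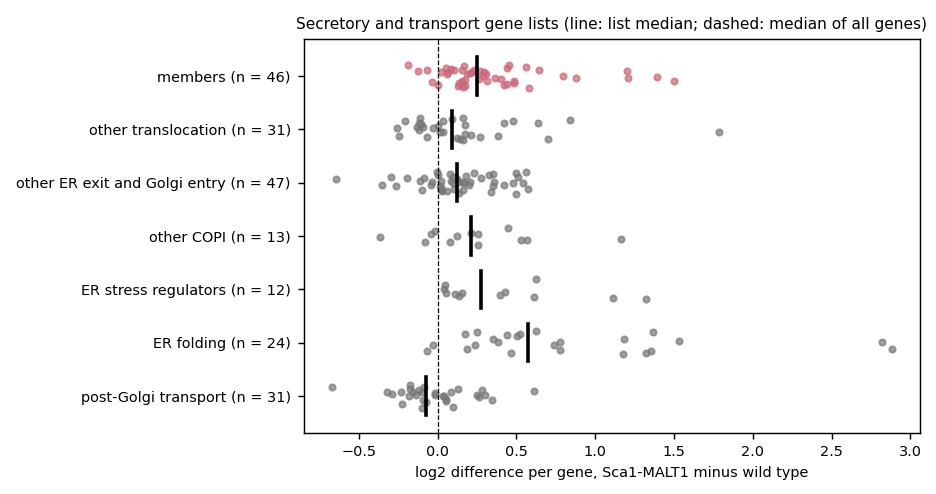
Log2 difference of each gene (x axis, Sca1-MALT1 minus wild type) in the members and in 6 related lists (rows, with the number measured), with the list median as a black line and the median of all genes, 0.004, dashed. The members' median is 0.25, that of ER folding 0.57 and that of post-Golgi transport -0.08.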

How the data were processed

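Total RNA of sorted cells was amplified, labelled and hybridised to 1-colour Affymetrix arrays. The authors deposited log2 values, 1 for each probe set on each array, computed by RMA (background correction, quantile normalization and probe summary) per the submitters' processing notes. For RMA, no version is given in the sources used here. Deposited values ran from 2.73 to 15.41 and were used as they stood. RMA gives no detection call, and the number of arrays limits the precision.

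Of 45101 probe sets, 64 controls, 932 with several genes and 9160 not listed in the platform annotation were left out. Symbols were updated by Entrez identifier through RefSeq (GRCm38.p6, 18031 of 18193 genes). Genotype was tested with limma 3.58.1 (lmFit, eBayes) in R 4.3.3 over all genes, with Benjamini-Hochberg adjusted p under 0.05; the fit was tested on simulated data. Named were members past the threshold, the 15 with the lowest p, the lowest p of each of 9 role groups and the 3 most negative, plus 2 genes per further list and every other member by its value. Promoters shown were those of members past the threshold and the 3 of lowest p with GCCACGT. The members, lists and rules were chosen with earlier results of these data known. Since nothing ties each sample to its own animal, the p-values reflect only how these samples vary, part of which may be technical.

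Alternatives were quantile normalization, median centring, no dim genes, the mean or second brightest or all probe sets, trend and robust variance, array weights, a replicate block, an Xist term, stricter and looser thresholds, and each array left out.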

Additional observations from a re-analysis of the deposited data

Results flagged for a closer look

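In the 5 Sca1-MALT1 arrays, 4 of 47 values examined (46 members and their median) had 1 array far from the others; chance flags about 1 in 20. Sec61b read 12.32 on replicate 3, below the others at 12.73 to 12.89. Sec11c read 13.37 on replicate 1, above 12.72 to 12.90, and Spcs2, also of signal peptidase, read 12.98 on the same array, above 12.31 to 12.45. Sec24b read 10.37 on replicate 5, above 9.67 to 9.78.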

How the results depend on the processing

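The member median of 0.25 moved by less than the spread between arrays in every alternative run (0.19 to 0.31 with 1 array left out), and 39 to 43 members were above 0 in the fits by gene. The count of members past the threshold was 0, in place of 1, with the mean of probe sets, the second brightest probe set, the replicate block or an adjusted p of 0.01, and 0 to 1 with 1 array left out. All genes past it numbered 28 with median centring, 6 with the second brightest probe set, 28 with array weights, 29 with the Xist term, 8 at an adjusted p of 0.01 and 38 at 0.1. They numbered 8 to 38 with 1 array left out (10, 38, 8 and 9 without Sca1-MALT1 replicates 1, 2, 3 and 5). The split of 8 higher and 8 lower became 18 and 10 with median centring, 13 and 5 with dim genes left out, 17 and 11 with array weights, 23 and 6 with the Xist term, and with 1 array left out ran from 33.3% higher without wild-type replicate 3 or Sca1-MALT1 replicate 5 to 81.6% (31 and 7) without Sca1-MALT1 replicate 2. With the replicate block limma called 0 genes (2034 at an unadjusted p under 0.05) and Sec24a had an adjusted p of 0.237. Same-numbered arrays deviated with correlations of -0.22, -0.04 and 0.01. The labels do not say what the number stands for, and correlations over so few arrays cannot exclude a shared preparation. Over all probe sets, 20 of 98 member probe sets, in 16 members, did not overlap between genotypes. The share over all probe sets was not computed, and a member with several probe sets has more chances of 1 without overlap. With 1 array left out, 9 to 18 members did not overlap in either direction (18 without wild-type replicate 2). Of all genes, 4.84% to 8.09% were then higher without overlap and 3.29% to 7.74% lower. Other pathway genes past the threshold numbered 1 at an adjusted p of 0.1 and 0 to 3 with 1 array left out (3 without Sca1-MALT1 replicate 2). Of 359 values for 20 named members, 5 turned sign: Lman1 to -0.035 with its second probe set, Rpn1 to 0.022 with the mean of probe sets and -0.34 to 0.019 with 1 array left out, and Srp14 from -0.19 to 0.026 likewise. The causes were not tested.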
